A study of Homo sapiens with 3 samples.

Results

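A 4-Mb stretch of the short arm of chromosome 1 around MYCL is described here through all the peaks that 2 antibodies gave in it. Its members are the 201 H3K27ac peaks of 50268 and the 76 SIRT1 peaks of 96805 whose start lies from 39000001 up to 43000000 (hg38, counted from 1), together 277 of 147073 peaks. The segment was chosen by position after the local background of its peaks, the level each peak was measured against, had been seen to be high. Background, fold, p and fragment numbers of these peaks are therefore given as a description only. Peak positions, peak widths, the genes marked and the overlap of the 2 lists were not used to place the segment, although the number of peaks that pass a caller's threshold can move with the background.

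THP1 is a human monocytic leukaemia line. Wild-type THP1 cells had been treated for 24 h with PMA, a phorbol ester that drives them towards a macrophage-like state, and all 3 libraries share that line, genotype and treatment. Chromatin was precipitated with an antibody to acetylated lysine 27 of histone H3 (H3K27ac) in 1 library and with an antibody to SIRT1 in 1 library, and the third was an input without antibody, whose signal is not analysed here. Each antibody has 1 library, so nothing could be checked against a replicate, and no p-value was made from peaks or genes.

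H3K27ac is placed by acetyltransferases such as p300 and CBP and marks active promoters and enhancers. SIRT1 is a deacetylase that uses NAD and takes acetyl groups off histones and transcription factors. MYCL encodes a member of the MYC family of E-box-binding transcription factors and is known as an oncogene amplified in some small cell lung cancers. A peak caller compares the fragments that pile up at a summit with a local background, so the same pile gives a lower fold where the background is higher.

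The background of each peak is given below in multiples of the lowest background found in its list, called the floor, which was 0.937 fragments for H3K27ac and 0.362 fragments for SIRT1. Fragments at the summit and background were recovered from the deposited fold and p, and 50265 of 50268 H3K27ac peaks and 96803 of 96805 SIRT1 peaks, among them every member, had exactly 1 whole-number solution. On chromosomes 1 to 22, X and Y the lists held 48735 and 95517 peaks. H3K27ac lay at an end of 9 of 10 monocyte and macrophage markers, LYZ being the exception, of 0 of 4 T cell and 0 of 4 epithelial markers, and of 1 of 4 B cell (CD79A), 1 of 4 erythroid (KLF1) and 1 of 4 hepatocyte (SERPINA1) markers. Of all protein-coding genes 56.7% had H3K27ac within 1 kb of an end. SIRT1 peaks were weak throughout: 136 of 95517 (0.142%) reached a q of at most 0.05, and 84.4% rested on 2 or 3 fragments.

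The 250 bases before the start are shown for 4 genes that mark the range of H3K27ac in the segment: MYCL, with a low fold, NFYC, with the most fragments of the whole list, CAP1, with the highest fold of the segment, and COL9A2, a cartilage collagen gene with no H3K27ac in the window. They are RefSeq sequences (GRCh38.p14), 5′ to 3′ on the strand of the gene. Capitals mark matches to CCAAT (the NF-Y box), GGGCGG (the GC box), CACGTG (an E-box) or TGANTCA (an AP-1 site), each searched on both strands, where overlapping matches run together.
MYCL, chr1:39901918-39902167, minus strand: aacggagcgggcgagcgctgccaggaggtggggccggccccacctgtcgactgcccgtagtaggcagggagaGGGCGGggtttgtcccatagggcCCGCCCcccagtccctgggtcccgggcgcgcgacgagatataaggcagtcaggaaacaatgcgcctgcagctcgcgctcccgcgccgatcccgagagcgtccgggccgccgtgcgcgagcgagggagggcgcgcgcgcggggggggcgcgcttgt
NFYC, chr1:40691454-40691703, plus strand: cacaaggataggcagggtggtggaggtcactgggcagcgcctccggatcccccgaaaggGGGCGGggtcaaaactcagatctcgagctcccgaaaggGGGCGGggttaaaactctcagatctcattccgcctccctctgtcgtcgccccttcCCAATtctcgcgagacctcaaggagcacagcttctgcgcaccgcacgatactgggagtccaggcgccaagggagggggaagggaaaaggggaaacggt
CAP1, chr1:40039990-40040239, plus strand: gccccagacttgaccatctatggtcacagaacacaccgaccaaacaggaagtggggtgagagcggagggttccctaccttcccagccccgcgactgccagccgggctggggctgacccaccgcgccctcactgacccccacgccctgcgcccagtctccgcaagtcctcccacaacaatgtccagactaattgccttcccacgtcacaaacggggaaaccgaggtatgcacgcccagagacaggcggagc
COL9A2, chr1:40317287-40317536, minus strand: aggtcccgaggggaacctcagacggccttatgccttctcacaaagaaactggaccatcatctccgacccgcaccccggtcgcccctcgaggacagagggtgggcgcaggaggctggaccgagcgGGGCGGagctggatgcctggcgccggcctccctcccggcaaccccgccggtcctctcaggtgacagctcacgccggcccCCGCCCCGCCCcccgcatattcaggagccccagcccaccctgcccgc

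The MYCL window held 2 GC boxes, 35 CpG and 74.4% G and C. The NFYC window held 2 GC boxes and 1 CCAAT box, 17 CpG and 62.0% G and C. None of the 4 motifs lay in the CAP1 window, which had 15 CpG and 63.6% G and C. In the unmarked COL9A2 window there were 3 GC boxes, 22 CpG and 71.6% G and C, so it was no poorer in CpG or GC boxes than the NFYC and CAP1 windows. Inside its record COL9A2 did hold 2 H3K27ac peaks, the stronger with 249 fragments at a fold of 10.0.

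Start windows were found for 44 of the 52 protein-coding genes that lie whole inside the segment, and the first window listed for a gene held H3K27ac in 30 and none in 14. A GC box lay in 24 of the 30 marked windows (80.0%), against 70.0% of the 8179 marked windows of all genes and 56.0% of all 15843. A CCAAT box lay in 10 of them (33.3%), against 33.8% of the marked windows of all genes and 34.5% of all windows. The E-box was found in 5 (16.7%), against 9.56% of marked and 7.84% of all windows. The AP-1 site was found in 2 (6.67%), against 3.63% and 5.04%. Median G and C content was 65.6% in the marked windows of the segment and also 65.6% in those of all genes. The 14 unmarked windows had a median of 71.2%, and unmarked windows of all genes 57.2%. These are matches of letters and not sites shown to be bound. Windows of neighbouring genes on opposite strands can overlap, as those of P3H1 and C1orf50 do, so some bases are counted more than once.

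NFYC also carries 2 microRNA genes in its record, MIR30E and MIR30C1, which are printed because a member peak overlaps the first. The mature sequences are from RefSeq (GRCh38.p14, plus strand), with the seed, bases 2 to 8, in capitals, and both 5p arms share the seed GUAAACA of the miR-30 family.
hsa-miR-30e-5p: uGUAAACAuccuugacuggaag
hsa-miR-30c-5p: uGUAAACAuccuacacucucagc
hsa-miR-30e-3p: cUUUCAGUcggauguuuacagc
hsa-miR-30c-1-3p: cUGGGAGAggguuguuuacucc

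The MIR30E hairpin, 40754355 to 40754446, overlapped an H3K27ac peak from 40754356 to 40755016 with 53 fragments, a background of 22.8 floors and a fold of 2.42. The MIR30C1 hairpin, 40757284 to 40757372, had its nearest H3K27ac peak from 40755660 to 40755914, with 44 fragments, 20.8 floors and a fold of 2.20. The nearest SIRT1 peak to both, from 40778886 to 40779162, had 11 fragments and a fold of 2.66. Both H3K27ac peaks were thus low in fold and high in background.

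The background stepped up inside the segment and not at its edge. In the H3K27ac list, where 33.6% of all peaks lay above 2 floors, 183 of the 201 members did (91.0%), and in the SIRT1 list, where 2.23% did, 60 of the 76 members did (78.9%). These shares describe the values that the segment was chosen on. Consecutive H3K27ac peaks above 2 floors ran from 39508396 to 43172348, 180 peaks over 3664 kb, and SIRT1 peaks from 39658579 to 43164669, 69 peaks over 3506 kb. Each run was grown outward, within its own list, from the peak nearest to the MYCL start, so both had to include that place. That the 2 runs overlapped over nearly their whole length is a description. Whether both lists were made against the same control is not given in the sources used here, so their backgrounds cannot be taken as independent.

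The left step was abrupt. The last H3K27ac peak before the run, from 39409105 to 39409779 within MACF1, had 20 fragments and a background of 1.73 floors. The first peak of the run had 87 fragments and a background of 10.7 floors. In the SIRT1 list the last peak before the run, 39475644 to 39475921, also in MACF1, stood on the floor with 4 fragments, and the first of the run, in NT5C1A, stood at 4.61 floors with 7 fragments. H3K27ac alone places the change between 39409779 and 39508396, and SIRT1 alone between 39475921 and 39658579. If both lists change at the same place, which was not tested, the change lies between 39475921 and 39508396. There MACF1, a giant linker of actin and microtubules, ends (39487138) and BMP8A, a bone morphogenetic protein gene, begins (39491636).

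In background and fragments, members on the low side of the step resembled the rest of the genome. The 22 H3K27ac peaks before the run had a median background of 1.35 floors and 12.5 fragments. Of them 4 lay above 2 floors, where 33.6% of all H3K27ac peaks did. The 179 members in the run had backgrounds of 3.81 to 59.9 floors (median 12.5) and 12 to 3003 fragments (median 51). For SIRT1, the 16 peaks before the run stood on the floor or up to 1.21 floors with 2 to 4 fragments, and the 60 in the run at 2.73 to 16.99 floors with 4 to 17 fragments (median 7). Peaks in the run lie above 2 floors by definition, so the lack of overlap between the SIRT1 backgrounds of the 2 sides largely follows from that cut. The SIRT1 fragment numbers of the 2 sides met at 4. NDUFS5, a complex I subunit gene on the low side, had 84 fragments over a background of 1.02 and so a fold of 42.1.

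**Figure D1:**
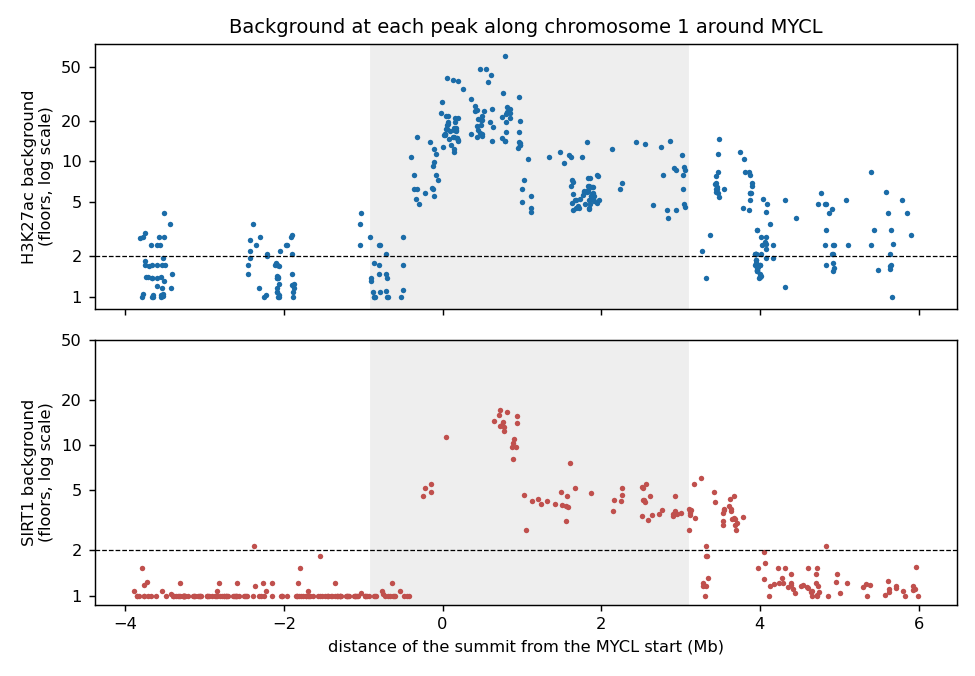
Local background of every H3K27ac peak (top) and SIRT1 peak (bottom) along chromosome 1, in floors of its own list on a log axis, against the distance of the summit from the MYCL start in Mb. Each point is 1 peak, the grey band is the segment and the dashed line marks 2 floors. Both lists step up left of MYCL and are highest in the Mb after it. Beyond the band, the peaks from 43300001 to 43800000 are still raised, with medians of 6.54 floors (H3K27ac) and 3.51 floors (SIRT1). Most peaks farther out lie lower.

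Within the run the background was uneven. In 200-kb bins the median H3K27ac background was 6.23 and 6.38 floors in the bins that start at 39400001 and 39600001. It was 17.0 floors in the bin from 39800001, which holds MYCL, 23.5 floors in the bin from 40400001 and 13.2 floors in the bin from 40800001. After these it was 4.58 floors in the 3 peaks from 41000001 and 11.3 floors in the 2 peaks from 41200001. From 41400001 to the end of the segment the bin medians ran from 5.43 to 13.9 floors, the highest in a bin of 1 peak. The SIRT1 medians were 5.01 floors from 39600001, 13.4 floors from 40600001 and 10.3 floors from 40800001, and 3.50 to 4.81 floors in the bins with peaks from 41400001. Both lists thus had high medians in the bins from 40600001 and 40800001.

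Ranked over 1-Mb bins with at least 5 peaks, the 4 bins of the segment took ranks 2 to 5 of 1939 by median H3K27ac background (18.0, 7.96, 6.28 and 5.70 floors for the bins from 40, 42, 39 and 41 Mb). By SIRT1 background the bins from 40, 41 and 42 Mb took ranks 2, 5 and 6 of 2943, with 13.3, 4.25 and 4.15 floors, and the bin from 39 Mb, most of whose SIRT1 peaks lie before the step, rank 562. Where an H3K27ac and a SIRT1 peak with raised background lay within 10 kb of each other, 19 pairs, the H3K27ac background was the higher in floors in 18, with a median ratio of 1.42 (0.960 to 3.47). The floors are not the same quantity in the 2 lists, and the ratio is given as a description. DNA copy number across the segment was not analysed here.

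The borders of the segment are those of its rule. Just outside on the left, the H3K27ac peak at the start of AKIRIN1 (38990477 to 38992454) had 194 fragments, 2.77 floors and a fold of 54.3, and just inside, the peak from 39001974 to 39002551 had 10 fragments, 1.39 floors and a fold of 4.79. The last member, 42957187 to 42959412 at SLC2A1, had 192 fragments and 8.69 floors, and the next peak outside, 43171606 to 43172348, had 47 fragments and 2.17 floors. For SIRT1 the peaks just outside and just inside on the left both stood on the floor (38974636 with 3 fragments and 39041599 with 4), and on the right 42903922 inside stood at 3.51 floors with 6 fragments and 43002125 outside at 2.74 floors with 5.

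H3K27ac peaks were dense in the segment and SIRT1 peaks were sparse. H3K27ac gave 50.3 peaks per Mb (95% exact Poisson interval 43.5 to 57.7, counting error only), against 28.0 (23.1 to 33.7) in the 4 Mb before it and 32.5 (27.2 to 38.6) in the 4 Mb after it. The rest of the primary chromosomes had 16.3 per Mb, taken over 1-Mb bins that hold a peak. SIRT1 gave 19.0 per Mb (15.0 to 23.8), against 39.5 (33.6 to 46.2) before, 32.3 (26.9 to 38.3) after and 32.1 elsewhere. The flank after the segment itself held peaks above 2 floors, among them 45 of the 68 H3K27ac peaks from 43000001 to 44000000. Over all H3K27ac peaks 33.6% lay above 2 floors. The intervals of the segment did not overlap those of either flank in either list, and the 2 antibodies differed from their flanks in opposite directions.

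The order of the densities was the same with stricter peaks and with neighbouring peaks merged. No intervals were made for these alternatives, so whether the segment stays apart from both flanks under them was not tested. Among H3K27ac peaks with −log10 q of at least 5 the segment had 40.3 per Mb and the flanks 20.5 and 23.5, and with peaks merged across gaps of up to 1 kb it had 34.0 and the flanks at most 22.5. Among SIRT1 peaks with −log10 p of at least 3 it had 12.5 per Mb and the flanks 20.5 and 18.3. On the low side of the step H3K27ac had 43.3 peaks per Mb (27.1 to 65.5) in 0.508 Mb. That interval overlaps those of both flanks but lies above the 16.3 per Mb elsewhere. In the run H3K27ac had 51.3 per Mb (44.0 to 59.4). SIRT1 had 24.3 per Mb (13.9 to 39.5) before its run and 18.0 (13.7 to 23.1) in it, so the intervals of the 2 sides overlapped in both lists. The part of the background in these densities was not tested.

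**Figure D2:**
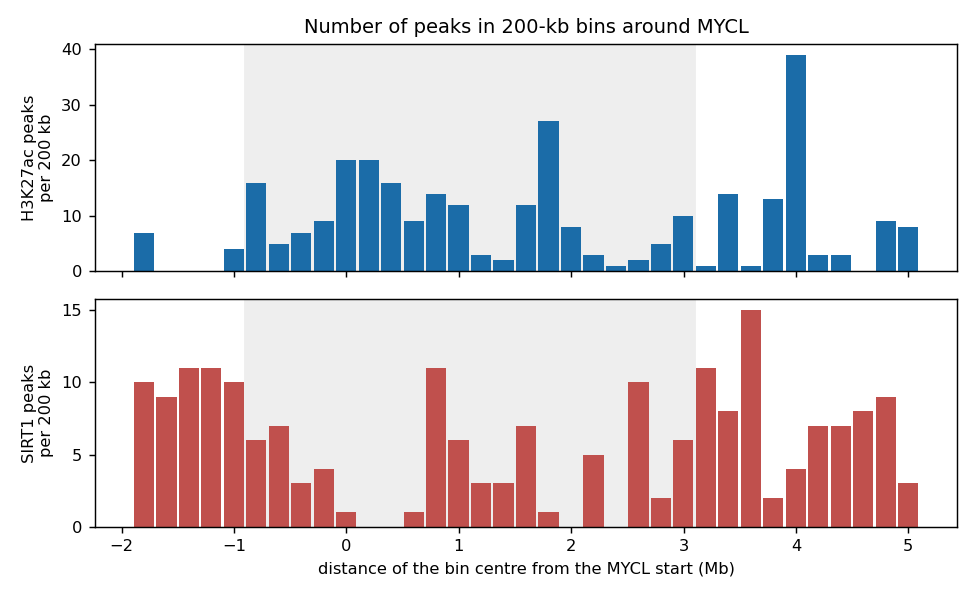
Number of H3K27ac peaks (top) and SIRT1 peaks (bottom) per 200-kb bin against the distance of the bin centre from the MYCL start in Mb, with the segment in grey. H3K27ac reaches 27 peaks in the segment, in a bin inside HIVEP3, and 39 in a bin beyond it, and SIRT1 has 0 in 4 bins of the segment, 2 of them next to each other just after MYCL.

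SIRT1 and H3K27ac members did not overlap. Of the 76 SIRT1 members 0 shared a base with an H3K27ac peak, where 0.745% of all SIRT1 peaks did, and 0 of 76 allows a share of up to 3.95% (3 counts of 76; the exact binomial bound is 4.74%), so no lower overlap than elsewhere was detectable. The longest stretch without a SIRT1 peak ran from 39946273 to 40544908, 598.6 kb that hold 54 H3K27ac peaks and genes such as MFSD2A, CAP1, RLF, ZMPSTE24 and SMAP2. Of 95493 gaps between SIRT1 peaks 19 (0.0199%) were as long. A second gap of 274.0 kb, from 41777653 to 42051700, most of it in HIVEP3, held 13 H3K27ac peaks. The longest gap between H3K27ac peaks, 225.6 kb from 41015294 to 41240855 over most of SCMH1, held 4 SIRT1 peaks.

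H3K27ac peaks were no wider than in the flanks. Their median width was 870 bp (675 to 1072, an interval for the median from the order of the widths), against 877 bp before, 842 bp after and 682 bp elsewhere. They covered 71.9 kb per Mb, against 39.8 and 42.8 kb in the flanks and 19.4 kb elsewhere. For SIRT1 the median width was 296 bp (286 to 321), against 306 and 320 bp. Of the H3K27ac summits 33 of 201 (16.4%, exact binomial interval 11.6 to 22.3) lay within 1 kb of a gene end, where 21.9% of all H3K27ac summits did, and 29.5% (21.2 to 38.8) and 28.5% (20.9 to 37.0) in the flanks. The share at gene ends was the lowest of these 4, but its interval includes the share of all H3K27ac peaks and overlaps those of both flanks.

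The fragment numbers set the segment apart within the H3K27ac list. Members took ranks 1 to 8 of 50268 by fragments at the summit, 9 of the top 10 and 19 of the top 100. At least 500 fragments were reached by 14 of 201 members (6.97%), where 34 of 48735 peaks (0.0698%) did. By −log10 p, members held the top 6 and 11 of the top 100. By fold, which divides by the background, none was in the top 100, the best was rank 630 (CAP1), and 8 of 201 (3.98%) reached a fold of 50, where 2.99% of all did. So the ranking of the same peaks depended on whether fragments or fold was used. The members' median was 48 fragments and a fold of 4.71, against 15 and 6.37 elsewhere.

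SIRT1 members were higher in fragments but not in fold. Their median was 6 fragments against 3 elsewhere, 11 of 76 (14.5%) rested on 2 or 3 fragments, and the median fold was 2.82 against 2.78. The most fragments, 17, were found at 40544909 to 40545267 in ZNF684 and at 40610088 to 40610381 beside RIMS3, over backgrounds of 14.5 and 15.8 floors. The highest fold, 3.84, was at 42666791 to 42667115 in PPIH with 8 fragments. No member reached a q of at most 0.05 (0 of 76, with the same limits).

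**Figure D3:**
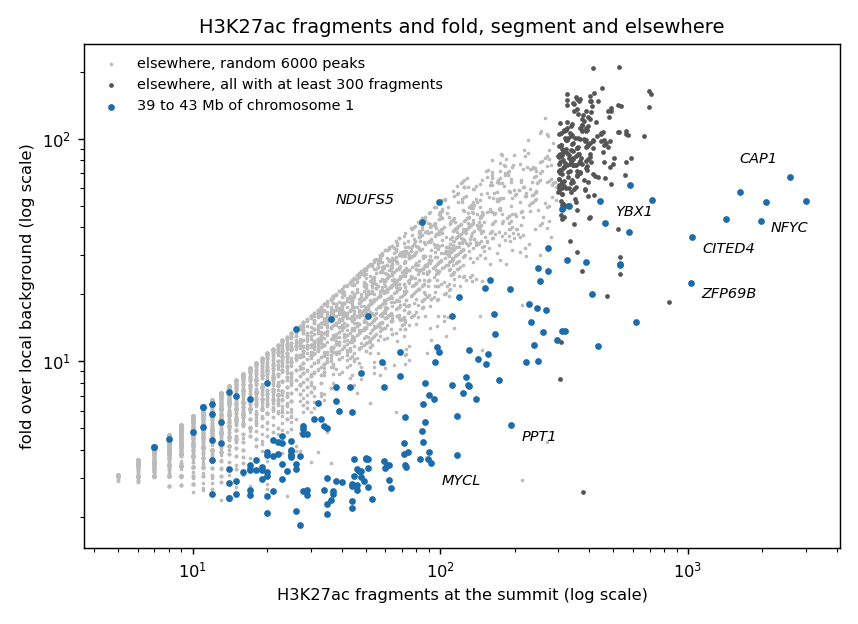
Fold over local background against fragments at the summit for H3K27ac peaks, both on log axes, with members in blue, a random 6000 peaks from elsewhere in light grey and all peaks from elsewhere with at least 300 fragments in dark grey. Many members, such as MYCL with 92 fragments at a fold of 3.48, lie below most other peaks with as many fragments, and a few peaks from elsewhere lie among them. NDUFS5 and other members on the low side of the step lie with the peaks from elsewhere.

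Fragments were set beside those of peaks of like fold elsewhere for 3 genes. CAP1, with a fold of 67.5, had 2595 fragments, and the 465 peaks elsewhere with a fold of 60 to 75 had 116 to 556 (median 206). NFYC, with a fold of 52.6, had 3003, and 715 peaks elsewhere with a fold of 47 to 58 had 91 to 417 (median 164). MYCL, with a fold of 3.48, had 92, and 7032 peaks elsewhere with a fold of 3 to 4 had 5 to 245 (median 8). NFYC and CAP1 rank 1 and 2 of the whole list by fragments, so they had to lie above the range of any peaks elsewhere. MYCL lay inside its range. On the low side of the step the strongest MACF1 peak had 99 fragments at a fold of 51.6, below the median of 164 elsewhere. The comparison uses the values the segment was chosen on and is a description.

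MYCL itself was among the weaker marked genes. Its record, 39895428 to 39901917 on the minus strand, held 1 H3K27ac peak, 39901118 to 39901924 at the start, 807 bp wide and reaching the last 7 bases of the window printed above. This peak had 92 fragments over a background of 25.7 fragments (27.5 floors), a fold of 3.48 and a −log10 p of 23.9. No SIRT1 peak lay in the record or within 1 kb of its ends. Its neighbours TRIT1, a tRNA-modifying enzyme gene, and MFSD2A, a lysophospholipid transporter gene, had 222 and 2077 fragments at folds of 9.95 and 52.1, over backgrounds of 21.4 and 38.9.

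H3K27ac lay within 1 kb of an end of 36 of the 52 genes (69.2%, 54.9 to 81.3), where 56.7% of all 20037 protein-coding genes were so marked. In the flanks 38 of 48 (79.2%) and 48 of 75 (64.0%) were. The interval of the segment includes the share of all genes. Either end of a gene counts here, so the peak named for a gene need not lie at its start. The strongest end peaks of the 36 genes were 30 different peaks, since neighbours whose ends lie close together share a peak. Over the 36 genes the fold ran from 2.42 to 67.5 (median 28.2) and the fragments from 14 to 3003 (median 438.5), and over all 11354 marked genes the medians were 19.0 and 63.

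**Figure D4:**
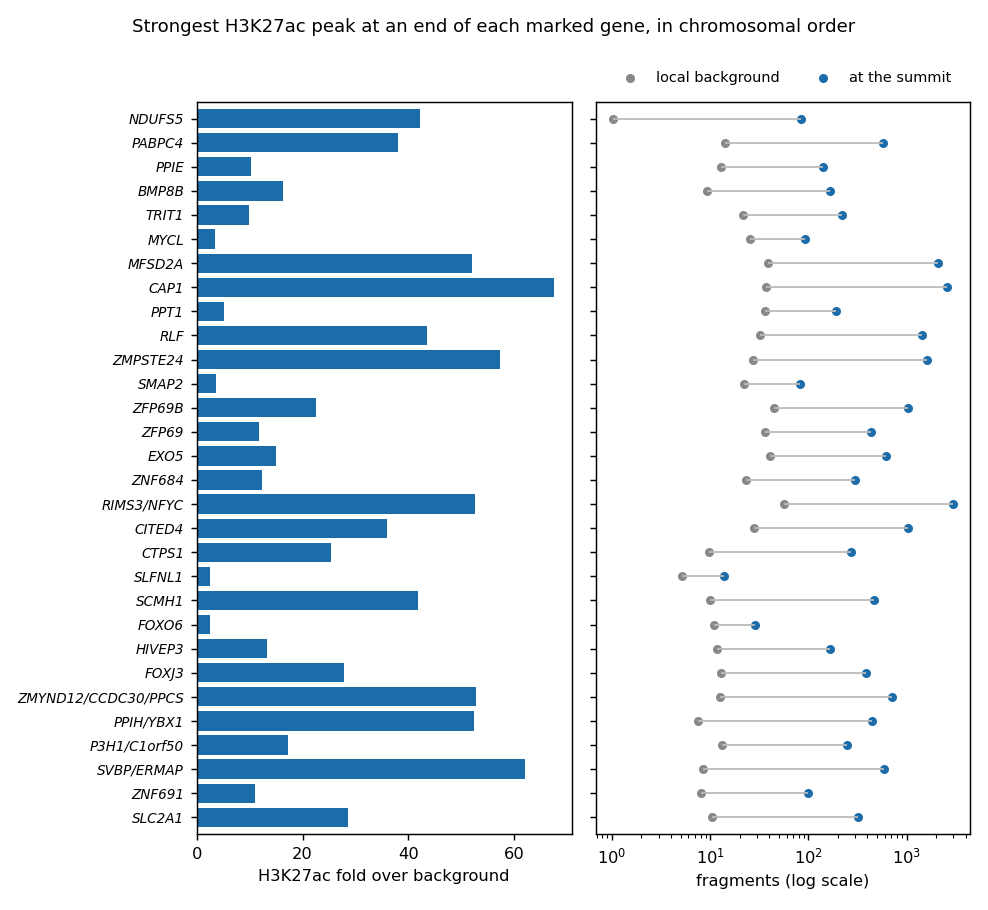
Strongest H3K27ac peak within 1 kb of an end of each marked gene in chromosomal order: fold over local background (left, bars from 0) and fragments in the background and at the summit (right, log axis). Genes that share a peak are joined by a slash. Background rises from 1.02 fragments at NDUFS5 to 56.1 at NFYC and RIMS3 and is 7 to 14 fragments from CTPS1 on in all but SLFNL1.

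The genes were grouped in role lists chosen with earlier results of these data known, and their counts are a description beside the 56.7% of all genes. Of the 11 genes on the gene regulation list, which also holds the traffic gene SMAP2, 10 were marked, with medians of 32.0 for fold and 415.5 for fragments, and HEYL, a Notch target, was not. NFYC, a subunit of the CCAAT-binding factor NF-Y, had the peak with the most fragments of the list, 40690747 to 40693825, with 3003 over 56.1 (59.9 floors), a fold of 52.6 and a −log10 p of 3915. That peak is shared with the start of RIMS3, a synaptic gene, and the 2 cannot be told apart. RLF, a zinc-finger gene that forms fusions with MYCL in small cell lung cancer, had 1429 fragments at a fold of 43.5. CITED4, which binds the coactivators p300 and CBP, had 1039 at 36.0, and a further peak 15074 bp away (40875152 to 40878947) had 533 at 27.4.

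YBX1, a Y-box protein gene, shares its peak with PPIH and had 442 fragments at a fold of 52.4. SCMH1, a Polycomb group gene, had 462 at 41.7 and FOXJ3, a forkhead gene, 389 at 27.9. HIVEP3, which encodes a large zinc-finger protein that binds κB sites, had 167 at 13.3 at its start. FOXO6, a forkhead gene of the FOXO family, had 29 at 2.49 at its far end, and its start window was unmarked. These genes lie over backgrounds of 7.46 to 13.0 fragments, lower than those of the genes near MYCL.

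In SMAP2, a GTPase-activating protein gene for ARF in vesicle traffic, the strongest peak lay away from the ends of the record. Within 1 kb of the ends the strongest peak, at the far end of the gene, had 83 fragments at a fold of 3.64. A peak 29195 bp inside the record, 40373555 to 40377781, had 1966 fragments over 45.1 (48.1 floors), a fold of 42.7 and rank 4 of the list, and a second, 40380624 to 40389123, was 8500 bp wide with 532 fragments at 26.9. Its record held 10 H3K27ac peaks with 44 to 1966 fragments and no SIRT1 peak. SMAP2 has 2 start windows, and whether the peak with 1966 fragments lies at a start inside the record was not checked.

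All 5 genes on the list for RNA and translation were marked, where 56.7% of all genes were. Their strongest end peaks were 4 peaks, since YBX1, which is also on the gene regulation list, shares its peak with PPIH. That peak lies at the start of YBX1 and at the far end of PPIH. The peak at the PPIH start, 42657706 to 42659386, had 72 fragments at a fold of 5.59. The list had medians of 38.1 for fold and 442 for fragments, with the shared peak counted for both genes. PABPC4, which binds poly(A) tails, had 580 fragments at a fold of 38.1. PPIE, a cyclophilin of the spliceosome, had 142 at 10.2. TRIT1 and the shared YBX1 and PPIH peak are given above. Of 7 metabolic and mitochondrial genes 4 were marked: NDUFS5, EXO5, a DNA exonuclease gene (620 fragments, fold 15.0), CTPS1, for CTP synthesis (272, fold 25.4), and PPCS, for coenzyme A synthesis (719, fold 52.8). The PPCS peak, 42455410 to 42457641, is shared with CCDC30 and ZMYND12. NT5C1A, a nucleotidase gene of muscle, OXCT2, a testis ketone-body enzyme gene, and RIMKLA had no H3K27ac peak.

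All 3 genes of protein processing and the lysosome were marked but with unlike values. ZMPSTE24, the protease that matures prelamin A, had 1619 fragments at a fold of 57.4. P3H1, a collagen prolyl hydroxylase gene that shares its peak with C1orf50, had 245 at 17.3. PPT1, a lysosomal thioesterase gene, had 193 at 5.15 over 36.7 background fragments, although its record held 9 H3K27ac peaks. Both transporter genes were marked, MFSD2A as above and SLC2A1, the glucose transporter GLUT1, with 324 fragments at a fold of 28.6. That SLC2A1 peak lies at the far end of the gene. The peak at the SLC2A1 start, 42957187 to 42959412, had 192 fragments at a fold of 21.1. CAP1, which recycles actin monomers, had 2595 fragments at 67.5, the highest fold of the segment, from 40037872 to 40043358.

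The 4 zinc-finger genes of the last list were all marked, at lower folds than most others. ZFP69B had 1030 fragments at a fold of 22.5, ZFP69 435 at 11.7, ZNF684 296 at 12.4 and ZNF691 99 at 11.0. The first 3 had backgrounds of 44.75, 36.32 and 22.96 fragments at their own peaks. They lie in the 200-kb bin from 40400001, whose median H3K27ac background, 23.5 floors, was the highest of the segment. Single peaks of that bin ran from 14.2 to 47.8 floors, so the background was not evenly high there. SVBP, a cofactor of the tubulin carboxypeptidases, and ERMAP, an erythroid membrane protein gene, share a peak of 955 bp (42816569 to 42817523) with 584 fragments over 8.43 and the second highest fold of the segment, 62.1.

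Genes known for narrow or secreted expression formed a list of 12, of which 2 carried H3K27ac at an end, where 56.7% of all genes did. They were BMP8B (165 fragments, fold 16.2) and RIMS3, the latter through the peak it shares with NFYC. Those unmarked at their ends included BMP8A, HEYL, HPCAL4, TMCO2, COL9A2, EDN2, GUCA2B, GUCA2A and CLDN19. Of these, BMP8A, COL9A2 and CLDN19 did hold H3K27ac inside the record. Their strongest such peaks had 87 fragments at a fold of 7.98, 249 at 10.0 and 12 at 2.53. The genes unmarked at their ends lie among the marked genes on the same stretch of chromosome. HEYL, HPCAL4, OXCT2 and TMCO2 held no peak of either list, and 11 genes in all held no H3K27ac peak. SLFNL1 was marked by a peak of 284 bp with 14 fragments and a fold of 2.42, the lowest at a gene end.

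SIRT1 lay at an end of 4 of the 52 genes (7.69%, 2.14 to 18.5), where 10.8% of all genes had it. SCMH1, the only gene with both marks at its ends, had a SIRT1 peak of 6 fragments at a fold of 2.76 (41027734 to 41028010) at the end opposite its H3K27ac peak. GUCA2B and GUCA2A, neighbouring genes for the gut peptides uroguanylin and guanylin, had 6 fragments at 2.77 and 7 at 2.80, and TMEM269 had 4 at 2.22. Among the genes named here SIRT1 peaks inside the record were most numerous in MACF1, with 13 on the floor side of the step, and RIMS3 held 6. The 6 in RIMS3 had up to 16 fragments at a median of 13.5 floors.

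HIVEP3 held the most H3K27ac peaks, 46 in a record of 529.6 kb, with 14 to 332 fragments and folds of 2.44 to 49.8 (median 4.50). The bin from 41600001 to 41800000 alone held 27 peaks covering 38.7 kb. The strongest, 41735497 to 41745318, was 9822 bp wide with 332 fragments at a fold of 49.8, far inside the gene. Its record held 3 SIRT1 peaks. The background over the record ran from 4.37 to 13.9 floors (median 5.70). MACF1 followed with 15 H3K27ac peaks at a median of 1.47 floors, the strongest with 99 fragments at a fold of 51.6, and NFYC and PPT1 held 9 each.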

How the data were processed

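The data were 2 ChIP-seq peak lists, 1 library each, for H3K27ac and SIRT1 in PMA-treated THP1 cells. The build hg38 and the tools MACS2 and deepTools come from the submitters' processing notes. The aligner, the tool versions, the read totals and any control of the caller were not given in the sources used here. With no control the caller would take the background from the library itself. The fold (a ratio), the −log10 p and the −log10 q of each peak are the authors' deposited values. The deposited score was 10 times −log10 q (H3K27ac) or 10 times −log10 p (SIRT1) in 100% of peaks. The lowest −log10 q was 1.30 for H3K27ac, and the lowest −log10 p 2.00 for SIRT1, whose −log10 q goes down to 0.

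Fragments and background were recovered from fold, taken as fragments plus 1 over background plus 1, and from p, taken as a Poisson tail, to a relative tolerance of 2e-06. Tested on simulated peaks, the step returned 100% of 1978 H3K27ac-like and 100% of 1900 SIRT1-like peaks. The simulated peaks were made with the same formulas for fold and p. The test therefore checks the inversion and not whether the deposited values follow these formulas. Genes were the 20037 protein-coding RefSeq records of GRCh38.p14, and a gene end was 1 kb on both sides of either end. Intervals are 95% exact Poisson or binomial, or from the order of values for a median, and cover counting error only, since peaks of 1 library are not replicates.

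The members, the role and marker lists, and the alternatives were chosen with earlier results of these data known. Genes named are MYCL; the 12 with the highest H3K27ac end fold; the 5 with most H3K27ac peaks; those with SIRT1 at an end; those at the ends of the runs; those without peaks; and the role lists. Other names were chosen after their values were seen, and a gene within this rule is left out of the text. Alternatives were stricter peaks, merged peaks, membership by summit, other gene-end windows, overlaps and floor limits, and leaving out 39 to 40 Mb. Computations ran in Python 3.11.15 with pandas 2.3.3, numpy 2.4.6, scipy 1.17.1 and matplotlib 3.10.9.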

Additional observations from a re-analysis of the deposited data

Results flagged for a closer look

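Raised background was also found just outside the segment, in peaks that are not among its members but belong to the 4 Mb after it that it was set beside. From 43000001 to 44000000, 45 of 68 H3K27ac peaks and 29 of 40 SIRT1 peaks lay above 2 floors, with medians of 2.67 and 3.24 floors. Over all peaks of the lists 33.6% (H3K27ac) and 2.23% (SIRT1) did. From 43000001 to 43200000, 1 of 1 H3K27ac and 9 of 11 SIRT1 peaks lay above 2 floors. From 43200001 to 43300000, 1 of 2 and 1 of 6 did, and from 43300001 to 43800000 all 26 H3K27ac peaks (median 6.54 floors) and all 19 SIRT1 peaks (median 3.51) did. From 43800001 to 44000000 it was 17 of 39 (median 1.87) and 0 of 4, and this H3K27ac count is not far from the share of all H3K27ac peaks. The stretch from 43300001 holds CDC20, an activator of the anaphase-promoting complex (171 fragments, fold 25.2), ELOVL1, a fatty acid elongase gene (357, fold 30.9), and KDM4A, a histone demethylase gene (272, fold 25.4). What moves with these borders was not tested.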

How the results depend on the processing

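Of 45 alternative values 34 stayed within the interval of the reported value, or for run lengths within 1.5 times of it, and 11 did not. With −log10 q of at least 5, H3K27ac gave 40.3 peaks per Mb, a median width of 1205 bp, a median background of 13.2 floors and a median of 69 fragments. With peaks merged within 1 kb, H3K27ac gave 34.0 per Mb and a median width of 1580 bp. With −log10 p of at least 3, SIRT1 gave 12.5 per Mb and lay at an end of 1.92% of the genes. With a gene-end window of 2500 bp, 23.4% of H3K27ac summits lay at gene ends. The SIRT1 run shortened to 1272 kb when raised meant over 3 floors, and also to 1272 kb over 4 floors, because the peak at 40959402 stood at 2.73 floors. The H3K27ac run was 3451 and 3229 kb long under the same limits. Membership by summit and leaving out 39 to 40 Mb moved no value out of its interval. A stricter threshold or merging leaves fewer or wider peaks by construction.

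No paired analysis was possible because each antibody has 1 library and no result comes from a test. Leaving out a replicate was not possible for the same reason. SIRT1 values rest on 2 to 17 fragments a peak, so small differences in fold between SIRT1 peaks were not detectable at this depth.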
